A study of Mus musculus with 12 samples.

Results

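The gene expression response of mouse embryonic stem cells (ESCs) to a raised level of Yes-associated protein (YAP) was measured by RNA-Seq in 6 of the 12 libraries of the series, chosen by their titles as YAP overexpression and overexpression control. The cells were E14Tg2a, an established ESC line grown without feeders in serum with leukemia inhibitory factor (LIF), which holds ESCs undifferentiated. In the YAP OE group (n = 3) the cells were transiently transfected with pCAG-mYAP, a plasmid that carries the coding sequence of wild-type mouse YAP behind the ubiquitously active CAG promoter. In the CTR OE group (n = 3) they were transfected with a control plasmid, which the sample labels give as encoding GFP. The paper calls it an empty vector. Both groups received plasmid DNA with a Lipofectamine reagent, and the labels give 3 independent experiments for each. A transient transfection reaches only a part of the cells and the RNA was taken from the whole dish, so every value is a mean over cells with and without plasmid. The transfected share was not analysed here, and a small change in every cell cannot be told apart from a large change in few cells.

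YAP is the transcriptional coactivator at the end of the Hippo pathway. When the MST and LATS kinases are active, YAP is phosphorylated and kept in the cytoplasm or degraded. Otherwise it enters the nucleus, where it has no DNA binding of its own and acts mainly through the TEAD transcription factors, which recognise the sequence GGAATG and its reverse complement CATTCC. In the preimplantation embryo nuclear YAP with TEAD4 marks the outer cells and turns on Cdx2 and Gata3 there, the regulators of the trophectoderm that will form the placenta. The inner cells hold YAP out of the nucleus when these layers first separate. In undifferentiated ESCs the study saw YAP clearly in the nucleus, though in a relatively low fraction of the cells.

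The 6 libraries held 42926256 to 57240703 expected counts, and 17955 to 18167 genes had a count in each. Libraries of one group correlated with r between 0.998 and 0.999 over genes, and the common biological coefficient of variation was 4.43%. Entries of small RNAs took 10.3 to 13.2% of the counts. Levels below are in CPM, a gene's counts relative to those of its library, after normalization by the trimmed mean of M values (TMM). The undifferentiated state was checked on its markers, and none of the 8 was called by edgeR's test, while 1, Klf4, had an unadjusted p under 0.05 and was called without YAP OE replicate 2 (adjusted p = 0.0473). The pluripotency factor Pou5f1 measured 1052, 1049 and 1016 CPM in the CTR OE libraries and 992, 955 and 1081 CPM in the YAP OE libraries (log2 fold change −0.04 ± 0.05 SE, adjusted p = 0.808). The naive state regulator Esrrb measured 597, 584 and 592 CPM in the CTR OE libraries and 579, 565 and 569 CPM in the YAP OE libraries (log2 fold change −0.05 ± 0.04 SE, adjusted p = 0.677). The other markers, Sox2, Nanog, Zfp42, Klf4, Tdgf1 and Dppa5a, lay between −0.11 and 0.04 on the log2 scale. Markers of other cell types were present at differing levels. The summed level over tested fibroblast genes (7 of 10 tested) was 8.52 to 10.1 CPM in CTR OE and 9.07 to 10.8 CPM in YAP OE. For mesoderm genes (11 of 14) it was 31 to 32.7 CPM and 29.5 to 34.0 CPM. For neural genes (8 of 15) it was 124 to 127 CPM in CTR OE and 115 to 120 CPM in YAP OE. Primitive endoderm genes (16 of 19) summed to 474 to 487 CPM and 528 to 549 CPM. Trophoblast genes and simple keratins (14 of 16) summed to 214 to 231 CPM in CTR OE and 245 to 281 CPM in YAP OE. The neural, primitive endoderm and trophoblast sums did not overlap between the groups. Ttr and Msgn1 had no count in any library, and Afp, Lum, Dcn, Postn and Olig2 had at most 5 counts in any of them.

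Yap1 itself (chr9:7931999-8004638, mm10) was checked first. Yap1 measured 134, 131 and 134 CPM in the CTR OE libraries and 278, 257 and 245 CPM in the YAP OE libraries. All 3 YAP OE libraries lay above all 3 controls, and the mean rose 1.95-fold (log2 fold change 0.97 ± 0.05 SE, adjusted p = 3.47e-08), the lowest p of all genes tested. Reads from the plasmid and from the cell's own gene were counted together and cannot be told apart. The mean length of the Yap1 transcripts, weighted by RSEM, was 4143.0 to 4143.6 bases in the CTR OE libraries and 4164.7 to 4165.8 bases in the YAP OE libraries, so the transcript mixture also moved with the transfection. None of the other 7 tested genes among YAP's partners and relatives passed edgeR's quasi-likelihood test after adjustment, although 6 of the 8, Yap1 included, had an unadjusted p under 0.05. Vgll3 was called by the edgeR exact test and with no filter beyond 1 count. Vgll1 and Vgll2 were too low to be tested. Vgll1 had 5, 6 and 4 counts in CTR OE and 19, 10 and 11 counts in YAP OE. Wwtr1, which encodes the YAP paralog TAZ, measured 27.7, 28.4 and 27.8 CPM in CTR OE and 28.6, 31.6 and 30.8 CPM in YAP OE (log2 fold change 0.12 ± 0.05 SE, adjusted p = 0.277). Tead4, which encodes a DNA-binding partner, had a log2 fold change of 0.15 ± 0.06 (SE, adjusted p = 0.282).

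Among the genes known from human cancers as direct YAP/TEAD targets, the calls were increases. Of 19 tested members of this list, 5 were upregulated, Cyr61, Ctgf, Amotl2, Lats2 and Ptpn14, and none was downregulated. This is 26.3% of the list against 2.13% of all genes tested called in either direction, and the list's median log2 fold change was 0.14 against −0.0025 over all genes tested, with 12 members above 0 and 7 below. The matricellular protein gene Cyr61 measured 8.70, 8.07 and 8.39 CPM in the CTR OE libraries and 15.6, 18.1 and 16.5 CPM in the YAP OE libraries. The groups did not overlap, and the level rose 1.99-fold (log2 fold change 1.00 ± 0.07 SE, adjusted p = 1.18e-06). Ctgf measured 23.3, 24.5 and 25.3 CPM in the CTR OE libraries and 30.0, 30.9 and 30.0 CPM in the YAP OE libraries, again with no overlap (log2 fold change 0.31 ± 0.05 SE, adjusted p = 0.0015). Ctgf encodes a secreted relative of the Cyr61 protein, and its rise was smaller. Of the 14 members that did not pass, Ankrd1, a muscle ankyrin repeat gene, measured 0.290, 0.554 and 0.514 CPM in CTR OE and 0.583, 0.505 and 0.751 CPM in YAP OE (log2 fold change 0.46 ± 0.27 SE, adjusted p = 0.505), and the receptor tyrosine kinase gene Axl had a log2 fold change of 0.23 ± 0.10 (SE, adjusted p = 0.371). The lowest member, the ecto-nucleotidase gene Nt5e, measured 1.33, 1.48 and 1.56 CPM in CTR OE and 1.09, 0.918 and 1.02 CPM in YAP OE and did not pass (log2 fold change −0.52 ± 0.15 SE, adjusted p = 0.109), but was called down by the edgeR exact test (adjusted p = 0.0435).

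TEAD letters lie close to the start sites of the 4 of these 5 genes that had a promoter window. They were also found in 12.1% of the windows of all genes tested. Of the windows of the whole target list, called or not, 7 of 13 held them. The sequences below are 30-base stretches of RefSeq promoter windows (GRCm38.p6, which is mm10), written 5′ to 3′ on the strand of the gene, and are shown because Cyr61, Amotl2, Ptpn14 and Lats2 were upregulated and also belong to the feedback that restrains YAP or to its classical targets. Capitals mark GGAATG or CATTCC. The match began 103 bases before the start of Cyr61 (chr3:145650071-145650100, minus strand), 65 bases before that of Amotl2 (chr9:102717727-102717756, plus strand) and 146 bases before that of Ptpn14 (chr1:189728110-189728139, plus strand). In Lats2 it lay just after the start (chr14:57746102-57746131, minus strand). Ctgf had no window in the table.
Cyr61: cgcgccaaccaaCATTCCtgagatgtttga
Amotl2: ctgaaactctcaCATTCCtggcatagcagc
Ptpn14: cctccccggacgCATTCCtggcccgcccag
Lats2: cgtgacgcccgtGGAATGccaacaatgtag

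A few genes whose products restrain YAP were also upregulated. Of 27 tested kinases, scaffolds and junctional inhibitors of YAP, 5 were upregulated and none downregulated (18.5% called against 2.13% of all genes tested), 7 were below 0, and the list median was 0.04. Amotl2, an angiomotin that holds YAP at cell junctions, measured 81.4, 78.8 and 81.4 CPM in CTR OE and 98.4, 107 and 103 CPM in YAP OE (log2 fold change 0.35 ± 0.04 SE, adjusted p = 2.09e-04). The tyrosine phosphatase gene Ptpn14 measured 47.7, 48.7 and 46.1 CPM in the CTR OE libraries and 55.2, 61.5 and 57.6 CPM in the YAP OE libraries (log2 fold change 0.29 ± 0.05 SE, adjusted p = 0.0025). The kinase gene Lats2 measured 5.59, 5.96 and 5.23 CPM in the CTR OE libraries and 7.08, 7.80 and 7.72 CPM in the YAP OE libraries (log2 fold change 0.43 ± 0.08 SE, adjusted p = 0.009). All 3 YAP OE libraries were above all 3 controls in each of the 3 genes. The scaffold gene Wwc2, a relative of KIBRA, and Frmd6, the Willin gene, had log2 fold changes of 0.23 ± 0.05 and 0.25 ± 0.06 (SE). Amotl2 and Ptpn14 were called in all 6 fits that leave out 1 library. Lats2 was not called without CTR OE replicate 3 (adjusted p = 0.0702), Wwc2 not without CTR OE replicate 2 (adjusted p = 0.089) or 3 (adjusted p = 0.0761), and Frmd6 was called in 1 of the 6. The Wwc2 promoter held 3 matches, between 203 and 79 bases before the start, of which the first and the second are shown (chr8:47990730-47990759 and chr8:47990621-47990650, minus strand) for the density of the letters in 1 promoter.
Wwc2: gagcgagctgtgCATTCCtccgccctaccg
Wwc2: gggttaagctcaGGAATGtggcggcgagga

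**Figure D1:**
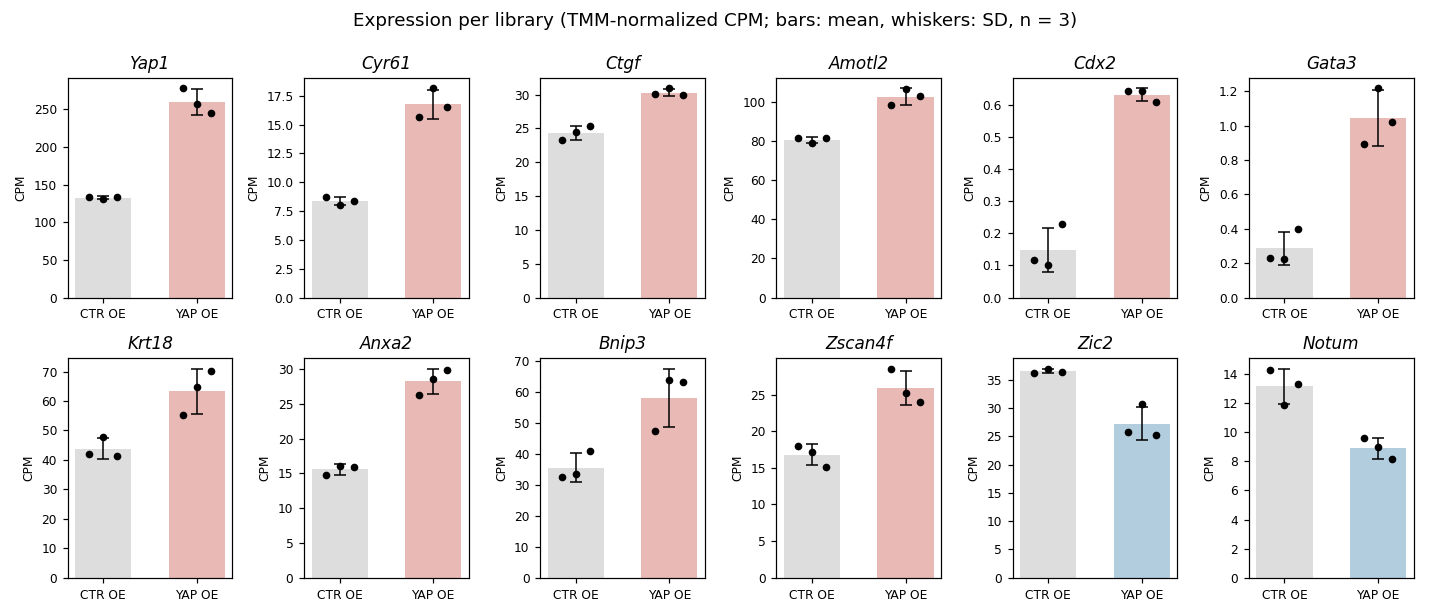
TMM-normalized CPM of 12 genes in the CTR OE and YAP OE libraries, with points for the libraries, bars for the group mean and whiskers for the SD (n = 3). In each panel the 3 points of one group lie clear of the other's, with 10 genes higher and 2, Zic2 and Notum, lower in YAP OE.

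Across all genes, increases outnumbered decreases. Of 14804 genes tested, 316 were called at an adjusted p under 0.05 (2.13%), 246 of them upregulated (1.66% of genes tested) and 70 downregulated (0.473%), so that 77.8% of the calls were increases. In all 316 the 3 YAP OE libraries lay to one side of the 3 controls. Of all genes tested 10.3% had the YAP OE libraries all above and 7.80% all below. The calls were made on the same values, so such a separation, here or in single called genes, is not separate support for them. Of all genes tested 48.7% had a log2 fold change above 0, and the median was −0.0025. The excess was larger among large changes: 70 genes rose and 6 fell at least 1.5-fold, and 30 rose and 4 fell at least 2-fold, whereas under 1.2-fold the calls were 63 and 39. The upregulated genes had a median increase of 1.31-fold and a median CTR OE level of 12.8 CPM, and the downregulated genes a median ratio of 0.838 and a median CTR OE level of 31.2 CPM.

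The split differed with expression level. When the genes were cut into 4 equal groups by mean CPM, 42 genes rose and 4 fell in the lowest group (0.146 to 2.52 CPM), 83 and 21 in the next (to 15.2 CPM), 68 and 26 in the one above (to 49.3 CPM), and 53 and 19 in the highest. Of the 246 upregulated genes 29 were under 1 CPM in CTR OE, against 1 of the 70 downregulated. A gene very low in CTR OE passed the count filter only if it had enough counts in YAP OE. A gene that falls must start higher in CTR OE. These control levels, and the median control levels above, are therefore in part a result of the selection. Summed over all 246 genes the level went from 9172, 9174 and 9294 CPM in the CTR OE libraries to 11220, 11400 and 11560 CPM in the YAP OE libraries. The sum over the 70 downregulated genes went from 3565, 4027 and 3644 CPM to 3015, 2952 and 2893 CPM, and the highest of these control values belonged to the library in which Lars2 was high. Nearly all calls were protein-coding, with 244 up and 66 down, and lncRNAs gave 2 up and 4 down.

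The direction of the excess was the same in every setting tried, but its size was not. Leaving out a control library reduced the calls to 168 without CTR OE replicate 1, 181 without replicate 2 and 154 without replicate 3. The share of increases was 89.0% without CTR OE replicate 3 and 68.0% without YAP OE replicate 2. With no filter beyond 1 count, 379 genes rose and 177 fell (68.2%). The fewest calls, 68, came on log2(TPM + 0.1) values with limma, where 64 genes rose and 4 fell (94.1%). Of the 246 upregulated genes 107 were called in all 6 fits that leave out 1 library, and of the 70 downregulated genes 9 were.

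**Figure D2:**
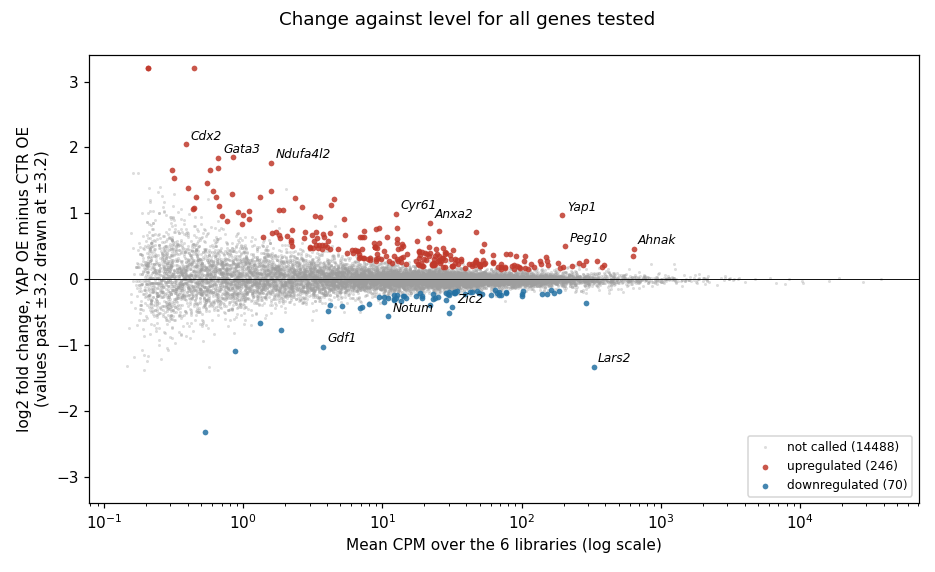
Log2 fold change of YAP OE over CTR OE against mean CPM over the 6 libraries (log axis) for all 14804 genes tested, with 246 upregulated genes in red and 70 downregulated genes in blue. Low genes with large changes are nearly all red, and the 3 genes without a count in CTR OE are drawn at the upper edge, 2 of them on one point.

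**Figure D3:**
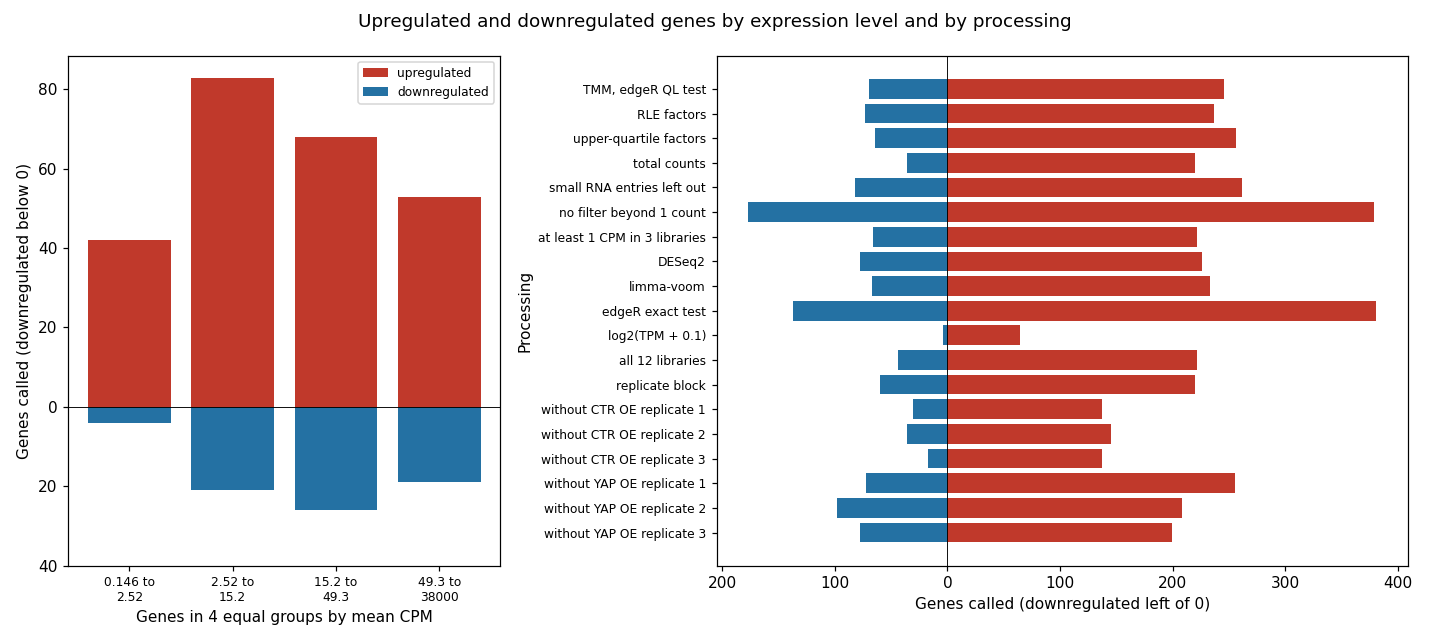
Number of upregulated (red) and downregulated (blue) genes in 4 equal groups of genes by mean CPM (left) and under each processing (right). Red exceeds blue in every bar, from 42 against 4 in the lowest group to 64 against 4 on log2(TPM + 0.1) values.

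Beside Yap1 and Cyr61, the genes of lowest p were not members of the classical target list. The annexin gene Anxa2 measured 14.7, 16.1 and 15.9 CPM in the CTR OE libraries and 26.3, 28.6 and 29.9 CPM in the YAP OE libraries (log2 fold change 0.86 ± 0.06 SE, adjusted p = 1.18e-06). The methylarginine-degrading enzyme gene Ddah1 measured 18.8, 20.4 and 18.7 CPM in the CTR OE libraries and 30.4, 33.6 and 31.8 CPM in the YAP OE libraries (log2 fold change 0.72 ± 0.05 SE, adjusted p = 2.69e-06). The secreted serine protease gene Htra1 measured 9.92, 9.55 and 8.81 CPM in the CTR OE libraries and 15.6, 17.0 and 16.1 CPM in the YAP OE libraries (log2 fold change 0.78 ± 0.06 SE, adjusted p = 8.63e-06). In these 3 genes the lowest YAP OE library was well above the highest control. Agpat9, now named Gpat3 and encoding an enzyme of triglyceride synthesis, rose from 2.67, 3.04 and 2.38 CPM to 6.13, 6.40 and 6.26 CPM (log2 fold change 1.22 ± 0.10 SE, adjusted p = 8.80e-06). The ubiquitin ligase gene Hecw2 had a log2 fold change of 0.77 ± 0.07 (SE, adjusted p = 2.06e-05), the actin regulator gene Eps8l2 of 0.63 ± 0.07 (SE, adjusted p = 1.43e-04) and Arhgdib, a GDP-dissociation inhibitor gene, of 0.94 ± 0.10 (SE, adjusted p = 1.01e-04). Ahnak, a giant scaffold protein gene, was one of the 5 called genes of highest level, with 499, 558 and 552 CPM in CTR OE and 747, 726 and 738 CPM in YAP OE (log2 fold change 0.46 ± 0.05 SE, adjusted p = 1.37e-04). All of these genes were called in all 6 fits that leave out 1 library.

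The largest increases among genes with a mean of at least 50 counts were in genes of low level. The mitochondrial protein gene Ndufa4l2 measured 0.754, 0.370 and 1.01 CPM in the CTR OE libraries and 1.56, 2.94 and 2.88 CPM in the YAP OE libraries (log2 fold change 1.77 ± 0.28 SE, adjusted p = 0.0026). The aldehyde oxidase gene Aox3 measured 1.24, 0.739 and 0.704 CPM in the CTR OE libraries and 2.61, 2.16 and 2.02 CPM in the YAP OE libraries (log2 fold change 1.33 ± 0.19 SE, adjusted p = 0.0013). The calpain-family gene Capn6 measured 1.18, 1.21 and 1.39 CPM in the CTR OE libraries and 2.49, 2.52 and 2.79 CPM in the YAP OE libraries (log2 fold change 1.05 ± 0.13 SE, adjusted p = 4.14e-04). The 3 YAP OE libraries lay above the controls in each, which was a condition for choosing these genes. The other genes of this kind were Usp17le, Usp17lb, 3830417A13Rik, 4933402E13Rik, A2m, Ly6a, H19 and Ptges, with log2 fold changes between 0.95 and 1.24. All but Usp17lb were called in all 6 fits that leave out 1 library. Usp17lb was lost without CTR OE replicate 2 (adjusted p = 0.0549) and without replicate 3 (adjusted p = 0.0565).

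Trophoblast genes gave the highest called share of the 32 lists. Of 14 tested trophoblast genes and simple keratins 6 were upregulated and none downregulated (42.9% called against 2.13% of all genes tested). In this list 13 of 14 log2 fold changes were above 0, and the median was 0.47. Cdx2 and Hand1 (below) were so low in CTR OE that they passed the count filter only through their counts in YAP OE. The called share, the number above 0 and the median are therefore in part a result of that selection. The homeobox gene Cdx2 measured 0.116, 0.103 and 0.228 CPM in the CTR OE libraries and 0.642, 0.643 and 0.608 CPM in the YAP OE libraries (log2 fold change 2.05 ± 0.30 SE, adjusted p = 0.0016). The zinc finger gene Gata3 measured 0.232, 0.226 and 0.400 CPM in the CTR OE libraries and 0.894, 1.22 and 1.02 CPM in the YAP OE libraries (log2 fold change 1.84 ± 0.25 SE, adjusted p = 8.86e-04). In both the lowest YAP OE library was more than 2-fold above the highest control, but the control levels were far below 1 CPM. The keratin pair of the trophectoderm and of other simple epithelia was higher at far greater depth. Krt18 measured 42.1, 47.9 and 41.4 CPM in the CTR OE libraries and 55.1, 64.7 and 70.2 CPM in the YAP OE libraries (log2 fold change 0.53 ± 0.07 SE, adjusted p = 0.001), and Krt8 measured 53.4, 57.6 and 53.5 CPM in the CTR OE libraries and 64.2, 70.7 and 76.8 CPM in the YAP OE libraries (log2 fold change 0.36 ± 0.06 SE, adjusted p = 0.0022). Id2 and the placental regulator Ascl2 had log2 fold changes of 0.27 ± 0.06 and 0.56 ± 0.14 (SE), and were called in 2 and 1 of the 6 fits that leave out 1 library, whereas Cdx2, Gata3, Krt8 and Krt18 were called in all 6. Among members that did not pass, Hand1 measured 0.135, 0.246 and 0.114 CPM in CTR OE and 0.272, 0.505 and 0.358 CPM in YAP OE (log2 fold change 1.17 ± 0.37 SE, adjusted p = 0.136) and Eomes 1.26, 1.03 and 1.5 and 1.71, 2.00 and 1.88 CPM (log2 fold change 0.55 ± 0.16 SE, adjusted p = 0.0949). Tfap2c was the member below 0 (log2 fold change −0.16 ± 0.05 SE, adjusted p = 0.0935), and Elf5 had 1 to 9 counts in every library and was not tested.

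The lists of cytoskeleton, cell surface and matrix genes each held a few calls beside many members that did not pass. Of 33 actin cytoskeleton and focal adhesion genes 5 were upregulated and none downregulated (15.2% called against 2.13% of all genes tested), 9 members were below 0, with Cald1, Tagln2, Lmna and Ilk among the increases and a median of 0.04. The actin-binding protein gene Cald1 measured 41.0, 48.8 and 43.4 CPM in the CTR OE libraries and 58.4, 61.8 and 59.7 CPM in the YAP OE libraries (log2 fold change 0.43 ± 0.05 SE, adjusted p = 4.14e-04), and it was the only one of the 5 called in all 6 fits that leave out 1 library. Of 16 annexins and S100 genes 3 were upregulated (18.8%), Anxa2, Anxa3 (log2 fold change 0.46 ± 0.06 SE, adjusted p = 5.90e-04) and S100a11 (log2 fold change 0.35 ± 0.08 SE, adjusted p = 0.0462). Of 23 laminins and integrins 2 were upregulated and 1 downregulated (13% called), 7 were below 0, and the median was 0.07. The increases were Lamb3 (log2 fold change 0.46 ± 0.09 SE, adjusted p = 0.0109) and Itga3 (log2 fold change 0.20 ± 0.05 SE, adjusted p = 0.0406). The decrease was Itgb7 (log2 fold change −0.30 ± 0.06 SE, adjusted p = 0.0142). Lamb3 was lost without CTR OE replicate 1 (adjusted p = 0.0567) or 2 (adjusted p = 0.0617). None of the 3 was called in all 6 fits that leave out 1 library. Of 27 epithelial junction and barrier genes 2 were upregulated (7.41%), 10 were below 0, and the median was 0.04. The transglutaminase gene Tgm1 measured 20.4, 20.8 and 20.5 CPM in the CTR OE libraries and 28.0, 26.1 and 30.0 CPM in the YAP OE libraries (log2 fold change 0.45 ± 0.05 SE, adjusted p = 2.54e-04), and the plakophilin gene Pkp2 had a log2 fold change of 0.20 ± 0.04 (SE, adjusted p = 0.025). Tgm1, Anxa2 and Anxa3 were also called in all 6 of these fits, while S100a11, Itga3, Pkp2 and Ilk were called in at most 1 of the 6 fits that leave out 1 library.

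Hypoxia-inducible genes gave the highest number of increases of any of the 32 lists. Of 27 tested, 9 were upregulated and none downregulated (33.3% called against 2.13% of all genes tested). A log2 fold change above 0 was found in 24, and the median was 0.20. The mitophagy receptor gene Bnip3 measured 32.5, 33.4 and 40.8 CPM in the CTR OE libraries and 47.4, 63.8 and 63.3 CPM in the YAP OE libraries (log2 fold change 0.71 ± 0.10 SE, adjusted p = 0.0011). The adenylate kinase gene Ak4 measured 40.7, 41.9 and 43.5 CPM in the CTR OE libraries and 49.1, 51.5 and 53.4 CPM in the YAP OE libraries (log2 fold change 0.29 ± 0.04 SE, adjusted p = 0.0022). The groups were apart in both. The others were Ndufa4l2 (above), the prolyl hydroxylase gene Egln3 (0.63), Ddit4 (0.40), Bhlhe40 (0.29), Ldha (0.28), Slc2a1 (0.20) and Ero1l (0.19), given as log2 fold changes. Glycolysis genes shared Ldha and Slc2a1 with this list and added Pgk1, Eno3 and Slc16a3. In all, 5 of 22 were upregulated and none downregulated (22.7% called), with 20 of 22 above 0. Pgk1 measured 553, 515 and 602 CPM in the CTR OE libraries and 653, 705 and 767 CPM in the YAP OE libraries (log2 fold change 0.35 ± 0.06 SE, adjusted p = 0.0076), and lost its call without CTR OE replicate 2 (adjusted p = 0.0593). Of the 9 hypoxia genes Ndufa4l2, Bnip3 and Ak4 were called in all 6 fits that leave out 1 library, and of the 5 glycolysis genes none was.

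2-cell-stage genes, which are expressed in the cleaving embryo and in rare cells of an ESC culture, were above 0 in 19 of 19 tested members. Of these, 7 were upregulated (36.8% called against 2.13% of all genes tested), and the median was 0.48. Zscan4f measured 18, 17.2 and 15.2 CPM in the CTR OE libraries and 28.5, 25.2 and 23.9 CPM in the YAP OE libraries (log2 fold change 0.63 ± 0.07 SE, adjusted p = 2.09e-04), and Zscan4d measured 3.46, 3.57 and 2.57 CPM in the CTR OE libraries and 5.56, 5.05 and 4.97 CPM in the YAP OE libraries (log2 fold change 0.70 ± 0.12 SE, adjusted p = 0.004). Zscan4 genes encode zinc finger proteins that act at telomeres. The lowest YAP OE library was above the highest control in both. Zscan4c and Zscan4b had log2 fold changes of 0.50 ± 0.09 and 0.52 ± 0.12 (SE). The Usp17l genes encode deubiquitinases, and Usp17la measured 0.271, 0.308 and 0.304 CPM in the CTR OE libraries and 0.836, 0.849 and 0.751 CPM in the YAP OE libraries (log2 fold change 1.45 ± 0.22 SE, adjusted p = 0.0022). Members of both families lie in clusters of near-identical copies on chromosome 7, between which reads can be divided wrongly, so the members are not independent and the value of a single copy is uncertain. Of the 7, 5 were called in all 6 fits that leave out 1 library, and Zscan4b and Usp17lb were not.

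Amino acid response genes, controlled by ATF4, gave 4 increases among 26, Atf3, Ddit3, Stc2 and Cth, and no decrease, with 23 above 0. That is 15.4% called against 2.13% of all genes tested. The cystathionine gamma-lyase gene Cth measured 90.5, 99.1 and 91.3 CPM in the CTR OE libraries and 112, 116 and 129 CPM in the YAP OE libraries (log2 fold change 0.35 ± 0.05 SE, adjusted p = 0.0018), and was the one of the 4 called in all 6 fits that leave out 1 library. Primitive endoderm genes gave 3 increases and no decrease among 16 (18.8% called). The osteonectin gene Sparc measured 58.2, 55.2 and 57.9 CPM in the CTR OE libraries and 68.5, 66.5 and 69.5 CPM in the YAP OE libraries (log2 fold change 0.26 ± 0.04 SE, adjusted p = 0.0022), and the endocytic genes Lrp2 and Dab2 had log2 fold changes of 0.27 ± 0.05 and 0.63 ± 0.11 (SE). All 3 were called in all 6 of these fits. The lineage regulators Gata4, Gata6 and Sox17 were not called, and Afp and Ttr were too low to be tested. Of 15 DNA methylation genes 2 were upregulated and none downregulated (13.3% called). They were Dnmt3l (log2 fold change 0.27 ± 0.05 SE, adjusted p = 0.004), which encodes the cofactor of the de novo methyltransferases, and the lncRNA D630045M09Rik, now named Eprn (log2 fold change 0.34 ± 0.05 SE, adjusted p = 0.0012). Both were singled out by the study from these libraries and their place in the list is not independent. Dnmt3l measured 327, 311 and 306 CPM in the CTR OE libraries and 386, 362 and 391.9 CPM in the YAP OE libraries, and it was not called without CTR OE replicate 3 (adjusted p = 0.0523). D630045M09Rik measured 21.5, 23.0 and 22.8 CPM in the CTR OE libraries and 29.8, 27.3 and 28.3 CPM in the YAP OE libraries, and it was called in all 6 fits that leave out 1 library.

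Single members rose in other signalling lists. Wls, which encodes the carrier that exports Wnt proteins, was the 1 increase among 16 Wnt genes. That list also gave 1 decrease (12.5% called against 2.13% of all genes tested). Wls measured 15.4, 17.0 and 17.0 CPM in the CTR OE libraries and 21.4, 21.7 and 22.6 CPM in the YAP OE libraries (log2 fold change 0.41 ± 0.05 SE, adjusted p = 5.74e-04). Fgfbp1, which encodes a carrier of FGFs, was the 1 call among 19 FGF and ERK genes (5.26%). Fgfbp1 measured 11.9, 11.5 and 10.6 CPM in the CTR OE libraries and 16.4, 15.7 and 16.7 CPM in the YAP OE libraries (log2 fold change 0.53 ± 0.06 SE, adjusted p = 2.09e-04). Both were clear of the controls in every library and were called in all 6 fits that leave out 1 library. Immediate early genes gave 3 increases among 16 (18.8% called against 2.13% of all genes tested), Ier3, Atf3 and Klf6, with a median of −0.06. Each was called in 1 of the 6 fits that leave out 1 library, and Atf3 was lost with DESeq2 and limma-voom. The germline gene Mael was the 1 call among 18 genes (5.56%), and the p53 target Plk2 the 1 call among 22 (4.55%). Both lost the call without CTR OE replicate 3 (adjusted p = 0.07 and 0.0871).

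The decreases were smaller and fewer. Of 16 genes of the formative and primed states, which follow the naive state of ESCs, 2 were downregulated and none upregulated. That is 12.5% called against 2.13% of all genes tested. In this list 14 were below 0, and the median was −0.22, the lowest of the 32 lists. The zinc finger gene Zic2 measured 36.2, 36.9 and 36.4 CPM in the CTR OE libraries and 25.8, 30.7 and 25.3 CPM in the YAP OE libraries (log2 fold change −0.43 ± 0.06 SE, adjusted p = 0.0012). All YAP OE libraries lay under the controls and the gene was called in all 6 fits that leave out 1 library. Sall2 had a log2 fold change of −0.34 ± 0.08 (SE, adjusted p = 0.0325) and was called in 2 of these 6 fits. Fgf5 measured 1.03, 1.38 and 1.33 CPM in CTR OE and 0.797, 0.964 and 0.679 CPM in YAP OE and did not pass (log2 fold change −0.63 ± 0.19 SE, adjusted p = 0.12). Of 17 pluripotency genes 1 was downregulated and none upregulated (5.88% called), 14 were below 0, and the median was −0.04. The gene called was Nr0b1 (log2 fold change −0.19 ± 0.04 SE, adjusted p = 0.0422). Nr0b1 was called in 1 of the 6 fits that leave out 1 library, and was lost with upper-quartile and total-count scaling.

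Notum, which encodes an enzyme that inactivates Wnt proteins, was the decrease among the Wnt genes. Notum measured 14.3, 11.9 and 13.3 CPM in the CTR OE libraries and 9.59, 8.97 and 8.14 CPM in the YAP OE libraries (log2 fold change −0.57 ± 0.08 SE, adjusted p = 0.0011). The activin subunit gene Inhbb measured 23.7, 24.7 and 26.8 CPM in the CTR OE libraries and 17.4, 20.2 and 19.6 CPM in the YAP OE libraries (log2 fold change −0.40 ± 0.06 SE, adjusted p = 0.0025). The groups were apart in both genes, and the calls held in all 6 fits that leave out 1 library. Of 22 TGF-beta, Nodal and BMP genes 3 were downregulated, Gdf1, Inhbb and Id1, and 1, Id2, was upregulated. That is 18.2% called against 2.13% of all genes tested. Id1 was called in 0 of the 6 fits that leave out 1 library and in 6 of the 12 other alternatives, DESeq2 and limma-voom not among them, and Id2 in 2 of those 6 fits. The Nodal cofactor gene Gdf1 measured 6.34, 5.48 and 3.25 CPM in the CTR OE libraries and 2.57, 2.34 and 2.45 CPM in the YAP OE libraries (log2 fold change −1.03 ± 0.19 SE, adjusted p = 0.0075). Its transcript also holds the coding sequence of Cers1. With the counts of Gdf1 and Cers1 summed, an alternative chosen after seeing the data, the log2 fold change was −0.19 (adjusted p = 0.413). Of 8 neural genes 1, Tubb3, was downregulated and none was upregulated (12.5% called). Tubb3 (log2 fold change −0.20 ± 0.05 SE, adjusted p = 0.0353) was called in 2 of the 6 fits that leave out 1 library. Among called genes outside the lists, chosen after their values were seen, the guidance ligand genes Slit2 (log2 fold change −0.29 ± 0.07 SE, adjusted p = 0.0461) and Ntn1 (log2 fold change −0.24 ± 0.05 SE, adjusted p = 0.0192) also fell.

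The largest decreases included values that depended on single libraries or on the method. Lars2 measured 304, 785 and 321 CPM in the CTR OE libraries and 169, 244 and 148 CPM in the YAP OE libraries (log2 fold change −1.33 ± 0.27 SE, adjusted p = 0.016). CTR OE replicate 2 was far above the other controls, and without it the log2 fold change was −0.75 (adjusted p = 0.0121). Without YAP OE replicate 1 or 3 the call was lost (adjusted p = 0.0503 and 0.0501). It was also lost with DESeq2 and with all 12 libraries in the fit. Polr2a measured 29.9, 31.7 and 44.0 CPM in the CTR OE libraries and 28.3, 23.9 and 21.4 CPM in the YAP OE libraries (log2 fold change −0.52 ± 0.12 SE, adjusted p = 0.032), and without CTR OE replicate 3, the highest library, the log2 fold change was −0.33 (adjusted p = 0.0911). Polr2a was also lost without YAP OE replicate 2 or 3, and was called in 7 of the 12 alternatives that keep every library. Wt1 (log2 fold change −0.78 ± 0.17 SE, adjusted p = 0.0222) and the antisense RNA Ppp1r3fos (log2 fold change −0.66 ± 0.15 SE, adjusted p = 0.0247) were called in 3 and 0 of the 6 fits that leave out 1 library. Strand was not stated for the counting, so reads of Ppp1r3fos and of the gene it overlaps cannot be told apart. The more stable decreases beside Zic2 and Notum were those of the lncRNA Halr1 (log2 fold change −0.43 ± 0.07 SE, adjusted p = 0.0059), called in all 6, and of Stmn3 (log2 fold change −0.43 ± 0.08 SE, adjusted p = 0.0086) and Samd9l (log2 fold change −0.48 ± 0.09 SE, adjusted p = 0.0116), called in 5. Stmn3 was lost without CTR OE replicate 3 (adjusted p = 0.0622) and Samd9l without replicate 2 (adjusted p = 0.0588).

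No count was found in any control library for 3 of the upregulated genes. Gm11236 had 46, 31 and 58 counts in the YAP OE libraries, at least 15-fold above a floor of 3 counts per control library. Gm13040 and Gm13057 had identical values, 21, 20 and 21 counts, at least 7.03-fold above that floor. All 3 lie on chromosome 4 (chr4:73635785-73642163, chr4:143535954-143542471 and chr4:143551700-143558236), the last pair next to each other, and their expected counts were not whole numbers in the YAP OE libraries, which RSEM gives where reads also match other genes. A neighbour of this pair, Gm13043 (chr4:143511343-143517831), chosen after its values were seen, went the opposite way, from 0.793, 0.924 and 0.970 CPM to 0, 0.0229 and 0.465 CPM (log2 fold change −2.32 ± 0.54 SE, adjusted p = 0.0373). Whether reads moved between such copies was not tested, and these values are uncertain.

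**Figure D4:**
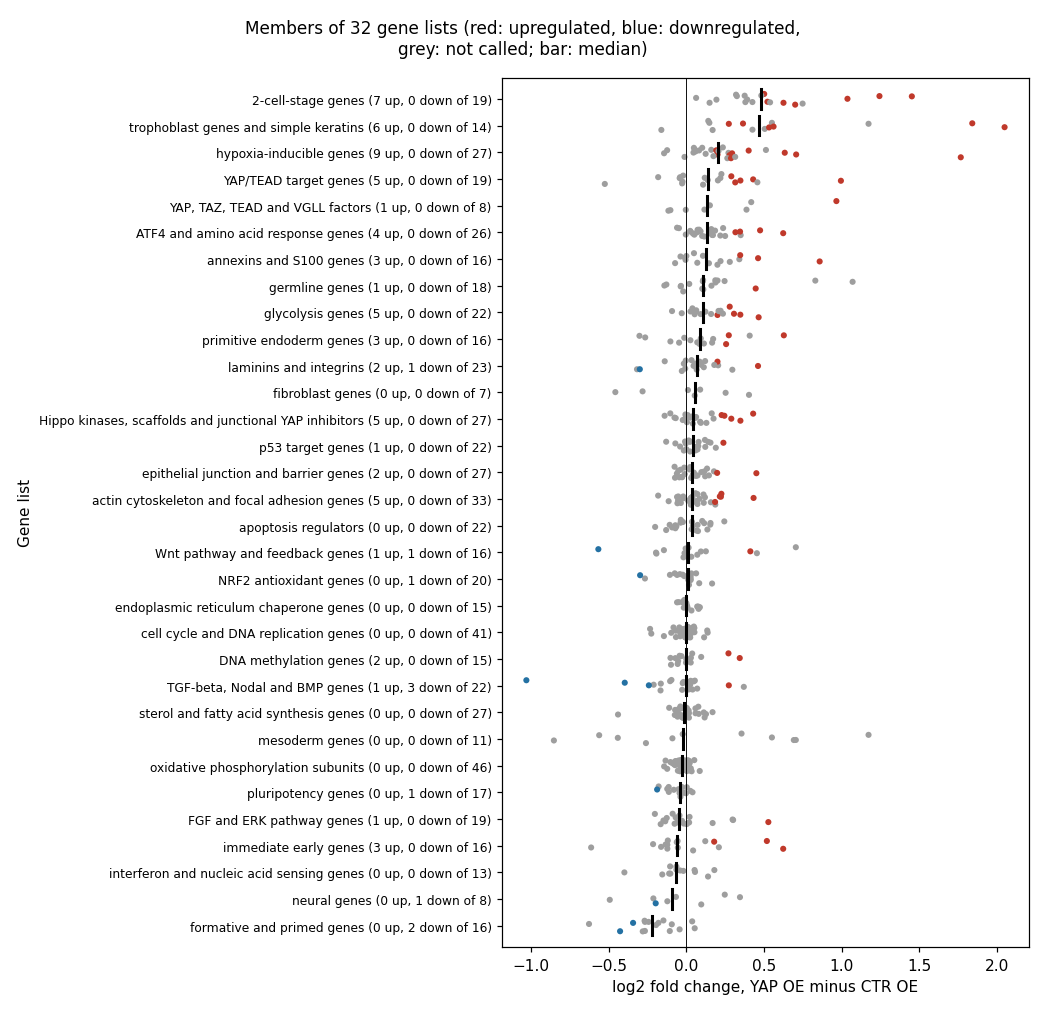
Log2 fold change of the tested members of 32 gene lists, ordered by list median (black bar), with upregulated members in red, downregulated in blue and members not called in grey. 2-cell-stage and trophoblast genes stand highest with medians of 0.48 and 0.47, and formative and primed genes lowest with −0.22.

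The 32 lists together held 614 different tested genes, of which 60 were upregulated and 10 downregulated, and 24 of the lists had a call. No member was called among 41 cell cycle and DNA replication genes, 46 subunits of oxidative phosphorylation, 27 sterol and fatty acid synthesis genes, 22 apoptosis regulators, 15 endoplasmic reticulum chaperone genes, 13 interferon and nucleic acid sensing genes, 11 mesoderm genes or 7 fibroblast genes. Of these 182 genes without a call by edgeR's test, 24 had an unadjusted p under 0.05, and the alternatives called at most 2 in the cell cycle list, at most 2 in the mesoderm list and none in the others. Of 20 NRF2 antioxidant genes 1, Cbr3, was downregulated and none was upregulated (5% called against 2.13% of all genes tested). Cbr3 (log2 fold change −0.30 ± 0.06 SE, adjusted p = 0.0107) lost its call without CTR OE replicate 2 (adjusted p = 0.0569). The other 246 called genes, 186 up and 60 down, were in no list.

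The same letters were counted in all promoters. Each RefSeq window ran from 250 bases before to 50 after the start, and 11663 of the 14804 genes tested had one. GGAATG or CATTCC, which are each other's reverse complement and so cover both strands, was found in 30 of 187 upregulated (16%), 7 of 56 downregulated (12.5%) and 1415 of all 11663 windows (12.1%). Of 13 genes of the YAP/TEAD target list with a window, 7 held it (53.8%). The AP-1 letters TGANTCA, which read the same on both strands and share no 6-base core with the TEAD letters, were in 17 of the 187 upregulated (9.1%), 2 of the 56 downregulated (3.6%) and 569 of all windows (4.9%). These are counts of letters in short windows and do not show binding, and distal sites lie outside them. Further examples are Ahnak, with the match 135 bases before the start (chr19:8989137-8989166, plus strand), and Tagln2, with matches 118 and 80 bases before it (chr1:172500116-172500145 and chr1:172500154-172500183, plus strand), shown as upregulated genes outside the target list.
Ahnak: ccttcaccggccCATTCCagggtggcttca
Tagln2: tcctttacggctCATTCCtgcctactgacc
Tagln2: taagcgctccagCATTCCacgcggcggcgc

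The same genes were read in the knockdown libraries of the series, where the cells received YAP siRNAs (YAP KD, n = 3) or a negative control duplex (CTR KD, n = 3), which share no library with the overexpression. Of 14606 genes tested there, 5.49% were called by the same test, 2.78% down and 2.71% up, and 48.2% had a lower level in YAP KD. Of the 246 genes upregulated in YAP OE 238 were tested, 182 of these (76.5%) had a lower level in YAP KD, 80 (33.6%) were called down and 17 (7.14%) were called up. Of the 70 genes downregulated in YAP OE 56 were higher in YAP KD, 22 (31.4%) were called up and 2 were called down. Over all 14521 genes tested in both, 2.79% were called down and 2.71% up in YAP KD. In all, 102 genes were called in opposite directions in the 2 experiments. That count was 66 without CTR OE replicate 1, 55 without CTR OE replicate 3, 65 without CTR KD replicate 3 and 67 without YAP KD replicate 2.

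Genes called in both in opposite directions included Yap1 (knockdown log2 fold change −1.14), Ctgf (−0.71), Amotl2 (−0.74), Ptpn14 (−0.38), Wwc2 (−0.46), Ahnak (−0.54), Ddah1 (−0.53), Htra1 (−0.61), Agpat9 (−0.73), Fgfbp1 (−1.0), Wls (−0.75), Tgm1 (−0.76), Dnmt3l (−0.59) and D630045M09Rik (−1.01). Zic2 (0.50), Notum (0.43) and Inhbb (0.61) were the matching decreases, called up in the knockdown. Cyr61, the target with the largest rise, had a knockdown log2 fold change of −0.03 (adjusted p = 0.933).

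Several groups did not follow this opposite pattern. Of the 9 upregulated hypoxia genes all were also called up in YAP KD, among them Ndufa4l2 (2.21), Bnip3 (0.67) and Ak4 (0.37), and 14 of the 27 hypoxia genes were called up there in all. Krt8 (0.37), Anxa2 (0.42), Anxa3 (0.30) and Pgk1 (0.52) were likewise called up in both experiments against their own controls. Of 22 glycolysis genes 12 were called up and none down in YAP KD, and of 11 trophoblast genes and simple keratins tested there 4 were called up and none down. Cdx2 and Gata3 were too low in the knockdown libraries to be tested. Why a gene was higher in both was not tested.

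**Figure D5:**
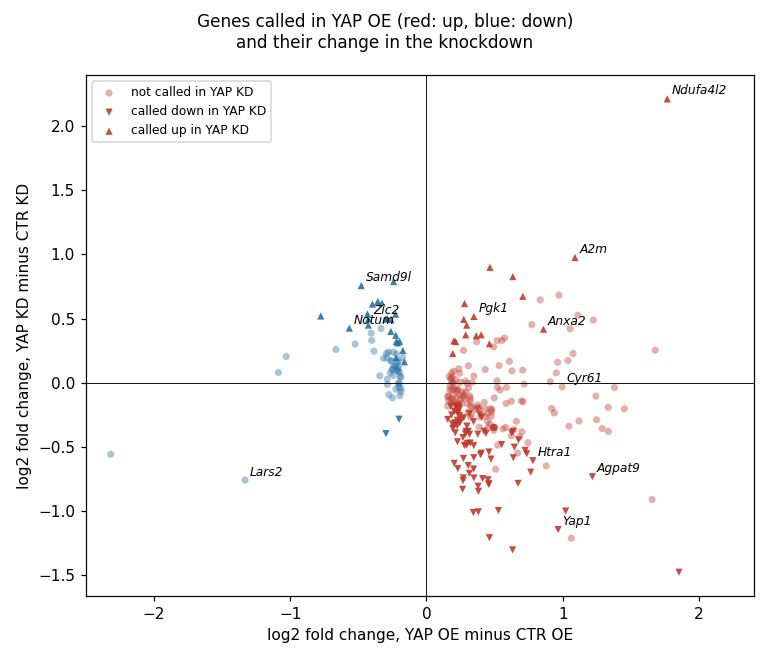
Log2 fold change in YAP KD against that in YAP OE for the 308 genes called in YAP OE and tested in both, red where upregulated and blue where downregulated in YAP OE, with triangles for genes called in YAP KD. Most red points lie below 0 (182 of 238) and most blue points above it (56 of 70), while Ndufa4l2, A2m and Anxa2 lie high in both.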

How the data were processed

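RNA-Seq of total RNA was made by the authors, who mapped reads to mm10 with STAR and quantified RefSeq transcripts with RSEM. Per the labels and file headers, the deposited tables hold, for 24480 genes per library, expected counts, TPM and the mean transcript length in bases. Tool versions were not given in the sources used here. Expected counts of the 6 overexpression libraries were rounded, filtered with filterByExpr (14804 genes kept), scaled by TMM and tested with the quasi-likelihood test of edgeR 4.0.16 in R 4.3.3. A gene was called at a Benjamini-Hochberg adjusted p under 0.05. Fold changes are YAP OE over CTR OE, with the SE from the fit. The knockdown libraries were fitted alone in the same way. The test was first run on simulated data.

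The genes described, the motifs and the 32 gene lists were chosen with earlier results of these data known. Named genes were the 15 highest and 10 lowest log2 fold changes among called genes with at least 50 counts on average and groups apart, the 15 of lowest p, the 5 called genes of highest and of lowest level, and list members. Replicates were not treated as pairs. No 2 libraries agreed within counting noise. Where a gene symbol had several promoter windows the first was used. Some list members are not reported here by name.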

Additional observations from a re-analysis of the deposited data

How the results depend on the processing

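The count of 316 called genes stayed within 1.5 times under RLE, upper-quartile and total-count scaling, without small RNA entries, with a filter of 1 CPM in 3 libraries, with DESeq2, with limma-voom and with all 12 libraries in the fit (256 to 344). It was 556 with no filter beyond 1 count, 518 with the edgeR exact test and 68 on log2(TPM + 0.1) values, and 154 to 327 when 1 library was left out. The share of increases was 94.1% on log2(TPM + 0.1) values and 68.0 to 89.0% when 1 library was left out. It was 68.2% with no filter beyond 1 count and 73.6% with the edgeR exact test. Libraries with the same number did not deviate together in overexpression (r = 0.0666, 0.0919 and −0.0308) or in knockdown (r = −0.425, −0.31 and 0.0392). Knockdown libraries of unlike number had r from −0.186 to 0.452, the highest for CTR KD replicate 2 with YAP KD replicate 1. Whether libraries of unlike number shared a batch was not tested. With the replicate number as a block, 280 genes were called and 78.6% of them were increases. In that fit 48 genes were called in opposite directions in overexpression and knockdown, against 102 without the block, and the count was 55 to 115 when 1 library was left out. No direction of a named gene was reversed. In 36 upregulated genes and no downregulated gene the call held in all 12 alternatives that keep every library. Most lost calls came on log2(TPM + 0.1) values and in fits with 2 libraries in a group. The cause of these shifts was not tested. With 3 libraries per group, genes that missed the threshold are not shown to be unchanged.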

Other observations

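Imprinted genes, which are expressed from 1 parental copy and include regulators of fetal and placental growth, drew attention among the called genes that no list held. A list of 15 was written after their values were seen and gets no test: 7 were upregulated, none was downregulated, and log2 fold changes ran from −0.11 to 0.97 with a median of 0.19. The fetal growth factor gene Igf2 measured 7.27, 6.67 and 6.85 CPM in the CTR OE libraries and 12.4, 11.9 and 11.3 CPM in the YAP OE libraries (log2 fold change 0.77 ± 0.07 SE, adjusted p = 1.85e-05). The neighbouring lncRNA gene H19 measured 0.658, 0.657 and 0.704 CPM in the CTR OE libraries and 1.19, 1.58 and 1.23 CPM in the YAP OE libraries (log2 fold change 0.97 ± 0.18 SE, adjusted p = 0.0089). All YAP OE libraries lay above all controls in both. The retrotransposon-derived placental gene Peg10 measured 172, 173 and 167 CPM in the CTR OE libraries and 249, 254 and 219.6 CPM in the YAP OE libraries (log2 fold change 0.50 ± 0.05 SE, adjusted p = 9.28e-05), and its neighbour Sgce had a log2 fold change of 0.65 ± 0.10 (SE, adjusted p = 0.0027). Grb10 (0.21), Slc38a4 (0.19) and Ascl2 (0.56) were the other increases on the log2 scale. Peg3 (0.03), Meg3 (−0.11), Igf2r (0.03), Snrpn (0.03), Mest (0.12), Phlda2 (−0.06), Dlk1 (0.31) and Cdkn1c (0.13) did not pass. In the knockdown Igf2 and H19 had log2 fold changes of 0.45 and 0.68, neither called, while Grb10 (−0.22) and Sgce (−0.50) were called down. Among those that did not pass in overexpression, Phlda2 (−0.21) and Mest (−0.18) were called down in the knockdown. Peg3 (0.22) and Cdkn1c (0.43) were called up there. Allelic expression was not analysed here.

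Genes of very low level carried some of the largest called increases outside the lists, also chosen after their values were seen. The aminopeptidase gene Xpnpep2 measured 0.309, 0.493 and 0.304 CPM in the CTR OE libraries and 1.28, 1.29 and 1.41 CPM in the YAP OE libraries (log2 fold change 1.85 ± 0.21 SE, adjusted p = 2.09e-04). The immune receptor gene Slamf9 measured 0.251, 0.267 and 0.323 CPM in the CTR OE libraries and 0.933, 0.711 and 1.00 CPM in the YAP OE libraries (log2 fold change 1.66 ± 0.24 SE, adjusted p = 0.0013). The muscarinic acetylcholine receptor gene Chrm3 measured 0.155, 0.267 and 0.247 CPM in the CTR OE libraries and 0.583, 0.551 and 0.608 CPM in the YAP OE libraries (log2 fold change 1.38 ± 0.27 SE, adjusted p = 0.0121). The proteoglycan gene Bgn measured 0.348, 0.411 and 0.266 CPM in the CTR OE libraries and 0.856, 0.895 and 0.840 CPM in the YAP OE libraries (log2 fold change 1.33 ± 0.22 SE, adjusted p = 0.0042). In all 4 the 3 YAP OE libraries were above the 3 controls, at levels where a transcript of few transfected cells cannot be told apart from a low level in many.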
